A study of Mus musculus with 7 samples.

Results

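The genes described here are 9 transcription factors that build and maintain the lens: Pax6, Foxe3, Sox1, Sox2, Prox1, Maf, Pitx3, Six3 and Meis1. They were chosen by name, as all probe sets whose single gene symbol in the platform annotation is one of these, which gave 25 of 45037 probe sets. Pax6 had 5 probe sets, Maf 6, Prox1, Six3 and Meis1 3 each, Sox1 2, and Foxe3, Sox2 and Pitx3 1 each. Lens epithelium was taken at 28 days of age from SPARC-null mice (KO) and their wild-type littermates (WT), both on a C57Bl/6 background and from 1 litter. The KO lenses were 4 from 3 animals (1L and 1R, the left and right lens of animal 1, then 4L and 7L), and the WT lenses were 3 from 3 animals (2L, 5L and 6L). Animal 7 was labelled male and the others female. Cells were cut by laser capture from stained cryosections, and the RNA of each lens went through a pair of amplification rounds onto its own Affymetrix mouse array. Lenses 1L and 1R were averaged on the log2 scale, so n = 3 animals in each group.

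In the embryo Pax6 and Six3 set up the tissue from which the lens forms, with Meis1 acting on Pax6, and Sox2 acts with Pax6 to switch on the first crystallins. Foxe3 and Pitx3 keep the anterior epithelium proliferating and undifferentiated. Prox1, Maf and Sox1 act in the cells that leave the epithelium to become fibres, where they drive cell elongation and crystallin genes. Several of these factors, Pax6, Six3, Sox2, Prox1 and Meis1 among them, are also used by neurons, glia or progenitors of the retina.

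Promoters of a pair of the factors and of a pair of crystallins that they are known to regulate are shown because they hold short motifs of the same protein families. Each runs from 250 bases before to 50 bases after a gene start in the reference (RefSeq, GRCm38.p6), 5′ to 3′ on the strand of the gene. Capitals mark exact matches, on either strand, to the Maf half-site TGCTGA, the MEIS core TGACAG or the SOX core ACAATG.
Pax6, internal start, chr2:105682213-105682512, + strand: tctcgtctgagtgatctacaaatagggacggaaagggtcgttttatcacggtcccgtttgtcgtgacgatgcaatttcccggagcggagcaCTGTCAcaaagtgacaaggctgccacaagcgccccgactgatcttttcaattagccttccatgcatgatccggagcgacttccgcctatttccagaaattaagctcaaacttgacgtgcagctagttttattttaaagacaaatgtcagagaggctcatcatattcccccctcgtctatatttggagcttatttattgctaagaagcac
Sox2, chr3:34649745-34650044, + strand: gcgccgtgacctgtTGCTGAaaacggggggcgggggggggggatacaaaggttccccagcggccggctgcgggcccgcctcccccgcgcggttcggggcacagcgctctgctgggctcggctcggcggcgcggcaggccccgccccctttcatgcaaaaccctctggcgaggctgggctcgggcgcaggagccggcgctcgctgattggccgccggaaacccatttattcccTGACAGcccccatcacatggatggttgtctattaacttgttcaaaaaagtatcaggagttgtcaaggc
Cryaa, chr17:31677681-31677980, + strand: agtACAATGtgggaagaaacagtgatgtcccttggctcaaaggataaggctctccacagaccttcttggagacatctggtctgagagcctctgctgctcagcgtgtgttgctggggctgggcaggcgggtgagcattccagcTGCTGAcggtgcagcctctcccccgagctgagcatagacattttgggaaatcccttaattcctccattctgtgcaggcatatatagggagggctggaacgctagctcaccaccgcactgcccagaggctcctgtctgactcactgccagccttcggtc
Crybb1, chr5:112255570-112255869, + strand: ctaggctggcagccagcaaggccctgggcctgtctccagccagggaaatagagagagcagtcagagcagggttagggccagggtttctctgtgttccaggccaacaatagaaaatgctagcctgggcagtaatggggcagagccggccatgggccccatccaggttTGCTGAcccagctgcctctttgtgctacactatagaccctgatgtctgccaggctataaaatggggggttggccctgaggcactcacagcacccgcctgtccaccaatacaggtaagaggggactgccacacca
The Pax6 window holds a MEIS core on the opposite strand, the Sox2 window a Maf half-site and a MEIS core, the Cryaa window a SOX core and a Maf half-site, and the Crybb1 window a Maf half-site. No marked match overlapped another. The Maf half-site was present in 1 of 10 promoter windows of the factors, that of Sox2, in 10 of 15 crystallin promoters (66.7%), and in 19.5% of all 32851 promoter windows. The MEIS core was present in 3 of 10 windows of the factors, 4 of 15 of the crystallins (26.7%) and 19.2% of all windows. The SOX core was in 1 of 10, that of Meis1, in 4 of 15 of the crystallins (26.7%) and in 12.6% of all. The forkhead motif TGTTTAC was in 0 of the 10 windows, 0 of the 15 crystallin promoters and 3.65% of all windows. The PITX motif TAATCC was in 0 of the 10, 1 of the 15 and 7.06% of all. A match is a string of letters in this window and does not show binding. The 10 windows cover 8 of the 9 factors.

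The labels held for the deleted gene: at its brightest probe set Sparc gave 8.14 to 70.5 in KO lenses, against 27371 to 49972 in WT lenses. Each array had the same trimmed mean signal, 500.00. Background was gauged from 27 bacterial controls, which have no target in mouse RNA, and the highest of them gave 24.3 to 45.5 on each array. All 14 measured markers of lens epithelium lay above the highest bacterial control in all 7 lenses, as did 12350 of all 18193 genes. The same held for all 12 measured fibre markers and all 14 measured photoreceptor markers, so these counts do not by themselves identify the captured cells. In such bulk samples fewer cells of a type and less RNA per cell cannot be told apart.

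No probe set of the 9 factors passed the test between KO and WT animals. The adjusted p (limma, Benjamini-Hochberg over all 45037 probe sets) was 0.99988 at each of the 25, and 0 of 25 had an unadjusted p under 0.05. Over the whole array 0.00666% of probe sets passed the adjusted threshold and 4.06% had an unadjusted p under 0.05. Of the 25 probe sets, 14 lay higher in KO and 11 lower (12 and 13 with median centring, which took the share of all probe sets higher in KO to 41.5%, beside 48.4% after quantile normalization). Their median log2 difference was 0.01, beside -0.01 over all probe sets. The median absolute log2 difference was 0.23 for the factors and 0.22 for all probe sets. At 1 of the 25 probe sets, a weak one of Pax6, the lenses of the groups did not overlap, beside 5.33% of all probe sets. The members' counts were therefore near those of the array as a whole.

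**Figure D1:**
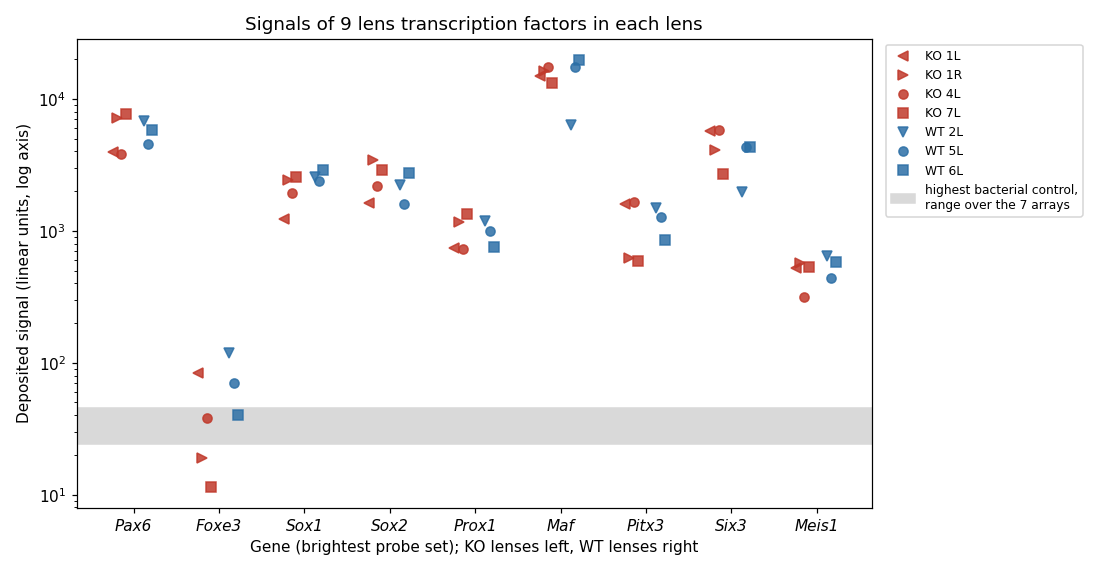
Deposited signal (linear units on a log axis) of the brightest probe set of each of the 9 factors in every lens, with KO lenses (red) left of WT lenses (blue) and the range of the highest bacterial control shaded. The groups overlap for each gene, and Foxe3 is the gene with lenses inside or under the shaded range.

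Pax6, the paired-box and homeobox factor at the head of eye development, was bright at 1 probe set, 1419271_at. There the signals were 3931 (1L), 7114 (1R), 3817 (4L) and 7748 (7L) in the KO lenses, and 6834 (2L), 4569 (5L) and 5779 (6L) in the WT lenses. Both the lowest and the highest lens were KO, and the WT lenses lay between them. The log2 difference was -0.06 (SE 0.31), and the 95% interval of the fold ran from 0.595 to 1.56. The remaining 4 Pax6 probe sets were far weaker. At 1437816_at all 4 KO lenses, with 126, 153.6, 160.7 and 148.7, lay above the WT lenses, with 55.3, 72.4 and 109.6. That log2 difference was 0.74 (SE 0.35, unadjusted p = 0.0636), and its interval reached from -0.05 to 1.53. At 1456342_at, of similar brightness, the log2 difference was -0.21 (SE 0.31), so the Pax6 probe sets did not move one way. At 1425960_s_at none of the 7 lenses exceeded the bacterial controls, and no fold is given. At 1452526_a_at WT lens 2L stood out with 275.8, where the other WT lenses had 43.1 and 48.0 and the KO lenses spanned 37.6 to 165.6.

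Six3, the homeobox factor that acts upstream of Pax6 in the lens ectoderm, had signals of 5671, 4103, 5800 and 2699 in KO lenses 1L, 1R, 4L and 7L, and 1970, 4325 and 4315 in WT lenses 2L, 5L and 6L. The groups overlapped, with 2L and 7L lowest. Its log2 difference was 0.37 (SE 0.36), and the interval of the fold was 0.736 to 2.26. Without WT animal 2 the log2 difference was -0.0077. The other Six3 probe sets were at or under the bacterial controls in most lenses.

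Meis1, a homeobox partner of this network, gave values in opposite directions at its brighter pair of probe sets. At 1450992_a_at the signals were 524.3, 573, 317.4 and 529.7 in KO lenses, and 643.9, 441.7 and 582.6 in WT lenses (log2 difference -0.28, SE 0.27). At 1443260_at they were 787.4, 681.1, 455 and 392.8 in KO lenses, and 447.9, 355.4 and 408.4 in WT lenses (log2 difference 0.31, SE 0.28). In the second of these both lenses of KO animal 1 were the highest of all 7. The weakest Meis1 probe set had a log2 difference of 0.07 (SE 0.36).

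Sox2, an HMG-box partner of Pax6, had signals of 1628, 3461, 2205 and 2869 in KO lenses 1L, 1R, 4L and 7L, and 2206, 1608 and 2750 in WT lenses 2L, 5L and 6L. The lenses of KO animal 1 spanned nearly the whole range of the 7. The log2 difference was 0.24 (SE 0.23), with a fold interval of 0.821 to 1.69. Sox1, the related HMG-box factor needed for gamma-crystallin genes and fibre elongation, had 1234, 2447, 1923 and 2557 in KO lenses, against 2542, 2402 and 2907 in WT lenses at 1438729_at. Lenses 1L and 4L were the lowest and the other KO lenses lay among the WT lenses. The Sox1 log2 difference was -0.32 (SE 0.21), and the fold interval was 0.581 to 1.10. The other Sox1 probe set lay under the bacterial controls in all 7 lenses.

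Foxe3, the forkhead factor of the anterior epithelium, was the member with the smallest p. Its single probe set gave 84.1, 18.8, 37.9 and 11.5 in KO lenses 1L, 1R, 4L and 7L, and 118.3, 69.7 and 40.2 in WT lenses 2L, 5L and 6L. Only 2 of 4 KO lenses and 2 of 3 WT lenses lay above the highest bacterial control of their array, so the size of the difference is poorly resolved. On the log2 scale Foxe3 was at 5.44 ± 0.58 in KO, against 6.47 ± 0.65 in WT (SD, n = 3 animals each). Foxe3 thus had a log2 difference of -1.02 (SE 0.46, limma unadjusted p = 0.0507), with an interval of -2.05 to 0.00. Lens 1L lay above 5L and 6L, so the groups overlapped. The log2 difference was -0.69 without KO animal 7 (limma unadjusted p = 0.191) and -0.71 without WT animal 2 (0.165). With lens 1R alone for KO animal 1 it was -1.28 (0.0174), while the adjusted p stayed at 0.9975. The unadjusted p was also under 0.05 without WT animal 6 (0.0194), with no intensity trend (0.0386) and with the filter on low values (0.0446). Median centring (0.0464) and a pseudocount of 1 (0.0499) likewise brought it under 0.05, and in the other alternative fits it was above.

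Pitx3, the paired-like homeobox factor whose loss leaves mice without a lens, had 1588, 617.8, 1642 and 586.4 in KO lenses, and 1502, 1282 and 846.1 in WT lenses. The KO lenses fell into a high pair, 1L and 4L, and a low pair, 1R and 7L, with the WT lenses between. The log2 difference was -0.24 (SE 0.37), and 0.14 without KO animal 7. Foxe3 ranked the KO lenses in nearly the same order, with 1L and 4L above 1R and 7L, and both factors ranked the WT lenses 2L, 5L, 6L from high to low. At Foxe3, however, 1R, 7L and 6L lay under the highest bacterial control of their arrays. Six3 also had 1L and 4L above 1R and 7L, but its lowest WT lens was 2L.

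Prox1, the homeobox factor of fibre elongation and cell cycle exit, had 746.4, 1160, 726.9 and 1338 in KO lenses 1L, 1R, 4L and 7L, against 1186, 991.4 and 760 in WT lenses 2L, 5L and 6L at 1437894_at. Here the KO lenses 1L and 4L were the low pair and 1R and 7L the high pair, the reverse of Pitx3 and the same as Pax6, Sox1 and Sox2. The log2 difference was 0.01 (SE 0.26), with a fold interval of 0.675 to 1.51. The weaker Prox1 probe sets had log2 differences of 0.25 (SE 0.39) and 0.21 (SE 0.51).

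Maf, the basic leucine zipper factor that activates crystallin genes in fibre cells, gave the most precise estimate. At 1456060_at the signals were 7338, 14510, 11210 and 9904 in KO lenses, and 9412, 10570 and 11570 in WT lenses. The log2 level was 13.35 ± 0.03 in KO, against 13.37 ± 0.12 in WT (SD, n = 3 animals each), a log2 difference of -0.01 (SE 0.17) with a fold interval of 0.761 to 1.29. That SD of KO hides the lenses of animal 1, the lowest and the highest of all 7. At the brightest Maf probe set, 1447849_s_at, the KO lenses had 14940, 16140, 17570 and 13240, and the WT lenses 6335, 17460 and 19650. WT lens 2L was the low one, and the log2 difference of 0.28 (SE 0.31) was -0.13 without WT animal 2. The other Maf probe sets had log2 differences from -0.09 to 0.23. The weakest of them, 1447945_at, exceeded the bacterial controls in only 1 KO and 1 WT lens.

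**Figure D2:**
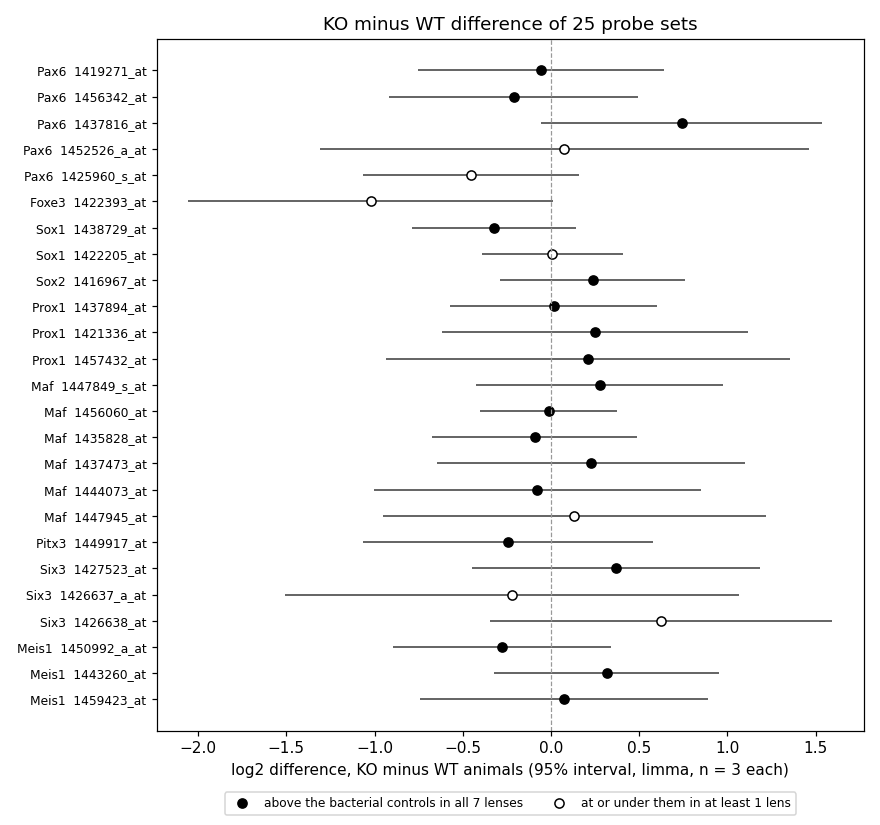
log2 difference of KO minus WT animals at each of the 25 probe sets, with its 95% interval from limma (n = 3 animals in each group). Every interval includes 0; filled points were above the bacterial controls in all 7 lenses and open points were not.

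The array of lens 2L differed from the others. Its ratio of 3′ to 5′ Gapdh signal, which is lower where RNA is more intact, was 3.75, while KO lenses had 9.88 to 15.9 and the other WT lenses 9.06 and 15.9. Its highest signal was 28328, where the other arrays reached 42153 to 53056. This lens had the lowest deposited signal of the 7 at Six3 and at the brightest Maf probe set and the highest at Foxe3 and Meis1 (1450992_a_at). The part of these array differences in the values of the factors was not tested.

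Between the eyes of KO animal 1 the factors differed more than between the groups, as did the probe sets of the whole array. The median absolute log2 difference between 1L and 1R over the 25 probe sets was 0.50, beside a median absolute KO minus WT difference of 0.23. Over all probe sets these medians were 0.42 and 0.22. The eyes are single lenses and the groups are means over animals, so a larger difference between the eyes follows in part from averaging. At 16 of 25 probe sets (64%) the eyes differed by more than the groups, and this share was 68.5% over all probe sets. The share was thus not particular to the factors. At the brightest probe set of each gene, lens 1L minus 1R was -0.87 for Pax6, -0.98 for Sox1, -1.07 for Sox2, -0.63 for Prox1, -0.20 for Maf and -0.14 for Meis1 on the log2 scale. In the opposite direction it was 1.38 for Pitx3 and 0.43 for Six3. Foxe3 was also higher in 1L, at 84.1 against 18.8 in 1R, but 1R lay under the highest bacterial control of its array (29.3), so no size is given. Probe sets of 1 gene did not always go one way: the log2 difference of 1L minus 1R ran from -1.03 (1456060_at) to 0.50 (1437473_at) for Maf, and was 0.21 and 0.75 at the other Meis1 probe sets. Several marker lists were also mostly lower in 1L than in 1R: 10 of 11 corneal stroma markers (median log2 difference -1.004), 10 of 12 fibre markers (-0.38), 11 of 14 lens epithelium markers (-0.18) and 8 of 11 corneal epithelium markers (-0.55). Among fibre markers Birc7, an inhibitor of apoptosis protein, had 319.4 in 1L against 1981 in 1R, and Dnase2b, the nuclease that degrades fibre DNA, 1338 against 5671. Photoreceptor markers ran the other way, with 13 of 14 higher in 1L (Opn1mw, a cone opsin, 1322 against 320.7). Over all genes 47.7% were lower in 1L. These 2 lenses are 1 animal, so the values carry no test, and the part of fibre, corneal or retinal RNA in them was not tested.

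**Figure D3:**
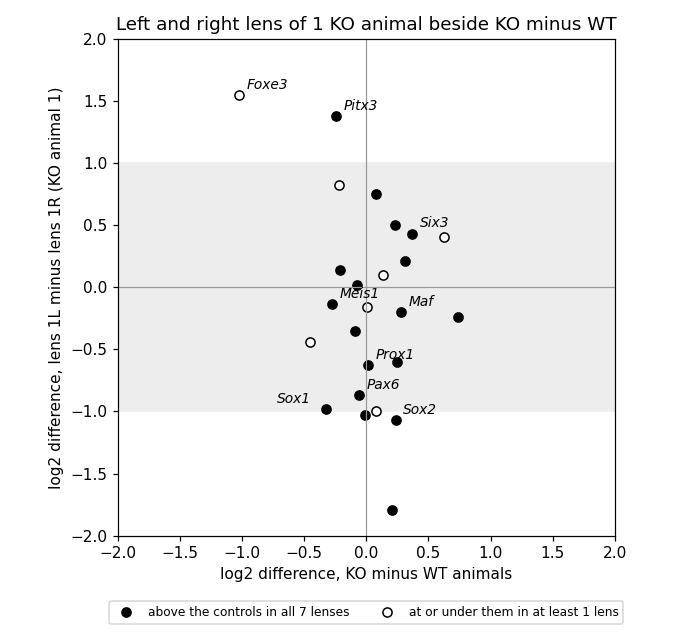
Each point is 1 of the 25 probe sets, with the log2 difference of KO minus WT animals on the x axis and that of lens 1L minus lens 1R of KO animal 1 on the y axis; the shaded band spans differences within 1 log2 unit either way, and names stand at the brightest probe set of each gene. The vertical spread exceeds the horizontal one, with Pitx3 at -0.24 and 1.38, but the y axis compares single lenses and the x axis compares means over animals. The y value of Foxe3, the highest point, has no reliable size, since lens 1R lay under the bacterial control there.

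No gene of the lists of known targets of these factors passed the test. Taken at the brightest probe set of each gene, 11 of 14 measured crystallins were higher in KO, beside 45.6% of all genes. Their median log2 difference was 0.06, beside -0.03 over all 18193 genes, and 0 of 14 had an unadjusted p under 0.05. All crystallin probe sets were bright (Cryba1 33600 to 41800 in KO lenses, against 19410 to 39870 in WT lenses), with 2L lowest, and near the top of the arrays. Without WT animal 2, 8 of 14 crystallins were higher (median 0.03). Of 19 other known targets 15 were lower in KO (median -0.15), beside 9894 of all 18193 genes. Without WT animal 2, 12 of the 19 were lower (median -0.05). In that list 1 gene had an unadjusted p under 0.05, beside 4.07% of all genes. This was Dnase2b, at 1338, 5671, 3100 and 2809 in KO lenses 1L, 1R, 4L and 7L, and 4835, 5355 and 5384 in WT lenses (limma log2 difference -0.83, SE 0.17, adjusted p = 0.918). Lens 1R was above all WT lenses, and the small SE hides the gap between 1L and 1R, which were averaged. With lens 1R alone for KO animal 1, 0 of the 19 targets had a limma unadjusted p under 0.05. Pdgfra, the growth factor receptor that falls when Foxe3 is lost, had a log2 difference of -0.01 (SE 0.18), and Cdh1, the cadherin of the epithelium, -0.29 (SE 0.19).

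Other regulators of eye development were likewise spread around 0. Of 49 measured genes 22 were higher and 27 lower in KO (median -0.01), and 0 passed the adjustment. With 1 in each direction, 4.08% had a limma unadjusted p under 0.05, near the 4.07% of all genes. The higher one was Tfap2b, an AP-2 factor that retinal amacrine cells also express, at 806.8, 526.9, 499.1 and 486.4 in KO lenses and 323.8, 251.6 and 213.9 in WT lenses (limma log2 difference 0.99, SE 0.26, adjusted p = 0.99988). Tfap2b is also counted among the inner retina markers below. The lower one was Sox21, an HMG-box relative of Sox2, at 95.3, 75.5, 78.2 and 43.6 in KO lenses and 177.9, 96.1 and 208 in WT lenses (limma log2 difference -1.12, SE 0.40, adjusted p = 0.99988). Neither gene had overlapping groups, and they were the only 2 of the 49 without overlap, beside 5.33% of all probe sets. Tdrd7, an RNA granule protein needed for a clear lens, was the brightest of this list and had a log2 difference of -0.22 (SE 0.19).

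Markers of inner retinal neurons, cells that use several of these factors, lay higher in KO lenses. Of 22 measured genes 20 lay higher in KO, beside 45.6% of all genes. The median log2 difference was 0.76, beside -0.03 over all genes. The unadjusted p was under 0.05 at 10 of 22 (45.5%), all higher in KO, beside 4.07% of all genes, and 0 passed the adjustment in limma. Over 16 alternative settings 19 to 21 of these genes lay higher, with medians of 0.61 to 1.00. Their summed signal was 12290 to 16330 in KO lenses, against 7018 to 9984 in WT lenses, and 19 of the 22 were above the bacterial controls in all 7 lenses. Neurod4, a neural basic helix-loop-helix factor, had 1059, 1222, 1389 and 1037 in KO lenses and 536, 216.8 and 436 in WT lenses (limma log2 difference 1.61, SE 0.31, adjusted p = 0.918). For Müller glia and astrocytes 9 of 12 markers were higher (median 0.30), with 5 (41.7%) at an unadjusted p under 0.05, all higher. Their summed signal was 60730 to 70390 in KO lenses, against 56700 to 66750 in WT lenses. Gfap, the intermediate filament of reactive glia, had 5004, 3858, 7081 and 3912 in KO lenses and 1095, 2213 and 2432 in WT lenses (limma log2 difference 1.47, SE 0.33, adjusted p = 0.99988). The mean log2 level over the 9 factors was 10.50 to 10.63 in KO lenses, against 10.64 to 10.67 in WT lenses. Without Foxe3, which lies near background, it was 11.07 to 11.33 in KO lenses, against 11.12 to 11.27 in WT lenses. The small gap over all 9 was thus absent over these 8, where the KO lenses spanned the WT lenses. The other factors were not left out in turn, so the gap cannot be tied to Foxe3 alone. The part of retinal RNA in the values of Pax6, Six3, Sox2, Prox1 and Meis1 was not tested.

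Leukocyte and corneal epithelium markers also lay mostly to one side, while 45.6% of all genes were higher in KO. Leukocyte markers were higher in KO at 12 of 14 (median 0.47), with summed signals of 2267 to 3460 in KO lenses, against 1286 to 2038 in WT lenses. The unadjusted p was under 0.05 at 4 of 14 (28.6%), 3 of them higher, beside 4.07% of all genes. Only 8 of these 14 exceeded the bacterial controls in all 7 lenses, and Aif1 did so in none, so the count of directions rests partly on values near background. Corneal epithelium markers were lower at 9 of 11 (median -0.62), with summed signals of 12110 to 25310 in KO lenses, against 18710 to 28000 in WT lenses. Of these 4 of 11 (36.4%) had an unadjusted p under 0.05, 3 of them lower. For corneal stroma markers 8 of 11 were lower (median -0.28), 2 of them with an unadjusted p under 0.05, and the summed signals were 35300 to 47550 in KO lenses, against 32970 to 52470 in WT lenses. Photoreceptor markers were lower in KO at 11 of 14 (median -0.17, 2 of them with an unadjusted p under 0.05), with summed signals of 57340 to 89650 in KO lenses, against 49130 to 95980 in WT lenses. The photoreceptor median depended on single animals, at 0.02 without WT animal 2, 0.06 without WT animal 5 and -0.46 without WT animal 6. Pigment epithelium and iris markers were higher at 7 of 13 (median 0.15, or -0.01 without WT animal 6), with 30970 to 59670 in KO lenses, against 29570 to 56730 in WT lenses. Their unadjusted p was under 0.05 at 3 of 13, 2 of them higher. No gene of these lists passed the adjustment, and the part of RNA of these cells in the values of the factors was not tested.

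**Figure D4:**
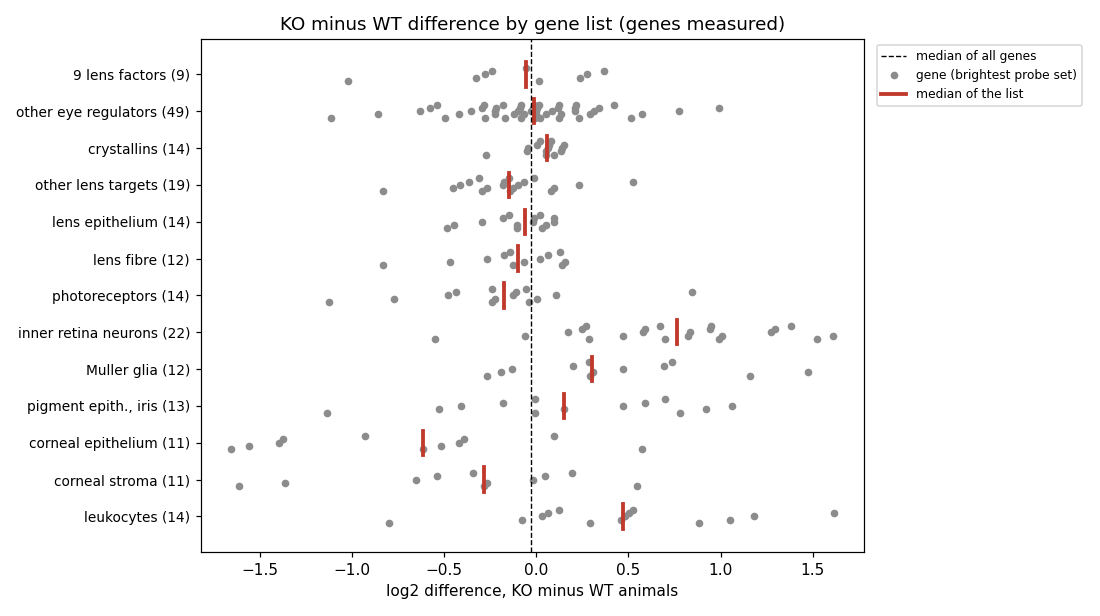
log2 difference of KO minus WT animals for each measured gene (grey, brightest probe set) in the 13 lists, with the median of each list (red) and of all genes (dashed). The 9 factors have a median of -0.06, and the inner retina list has one of 0.76.

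The genes whose animal-by-animal profile lay closest to each factor were found by the root mean square difference of log2 levels, centred on their mean, over the 6 animals, among 19437 brighter probe sets with 1 symbol. For Pax6 these were Zfp560 (0.04) and Cyp4v3 (0.06), and for Six3 Pgd (0.05) and Camk2a (0.06). For Pitx3 they were Apbb3 (0.05) and Nhp2 (0.08), and for Foxe3 Banf1 (0.14) and Spryd4 (0.20). Those of Sox1 were Car2 and Capza1, those of Sox2 D10Wsu102e and Vti1a, those of Prox1 Kif5b and Tlk1, those of Maf Larp4b and Poldip3, and those of Meis1 Ccny and Hibch. None of the 9 factors was in the closest pair of another, but this could hardly have come out otherwise. Foxe3 lay under the median level of all probe sets and was not a candidate, and only a pair was kept for each factor. With 6 animals and so many candidates, a small difference alone says little.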

How the data were processed

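The authors deposited 1 linear intensity value per probe set and array, for an Affymetrix mouse array. Per the labels' protocols, RNA of laser-captured cells was extracted with a column kit, amplified through a pair of cycles and biotin-labelled. The arrays share a scale: trimming 2% at each end left equal mean signals. The steps that summarised the probe signals and corrected background were not given in the sources used here.

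Of 45101 probe sets, 64 controls were left out, and 45037 were kept with no filter. The deposited signals were quantile normalized as log2(signal + 16), so log2 differences understate changes of weak probe sets. Signals quoted per lens are as deposited. Lenses 1L and 1R were averaged, and animals were tested, two-sided, in limma 3.58.1 under R 4.3.3 (eBayes, trend on), with p-values adjusted by Benjamini-Hochberg and called under 0.05. A gene with several probe sets is represented in lists by the one with the highest mean. A probe set at or under the highest of 27 bacterial controls of its array counts as not above background. The platform annotation gave 1 symbol for 34945 probe sets, several for 932 and none for 9160.

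All probe sets of the factors are covered, some of the weaker ones without their identifiers. In other lists up to 3 genes with the smallest p and the brightest one could be named. Birc7 falls under that rule for fibre markers, Opn1mw for photoreceptors, and Pdgfra was singled out after its values were seen. The members and lists were chosen with earlier results of these data known. On simulated data 200 of 45037 probe sets were changed, all drawn from those above the median level. The KO against WT fit recovered 5.2% of 2-fold and 50.9% of 4-fold changes. Recovery at weaker probe sets, such as that of Foxe3, was not simulated.

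Alternatives were treating the 7 lenses as independent, using only 1L or only 1R for KO animal 1, median centring, deposited signals, pseudocounts of 1 and 64, a filter on low values (above the controls in at least 3 lenses), no intensity trend, array weights, the mean over a gene's probe sets, an adjusted p of 0.1, and leaving out each animal.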

Additional observations from a re-analysis of the deposited data

How the results depend on the processing

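None of the 25 probe sets passed the adjusted threshold in limma under any of 16 alternative fits (396 tests, smallest adjusted p 0.717; the filter on low values removed 4). The number with an unadjusted p under 0.05 was 0 to 3. Foxe3, Sox1 and Sox2 kept their direction under all 17 alternatives, with log2 differences of -1.46 to -0.56, -0.49 to -0.16 and 0.04 to 0.41. Some of the 17 could not change a direction. The filter on low values and the fit without intensity trend leave the log2 difference as it is. So does the mean over probe sets for Foxe3 and Sox2, which have 1 each. Pax6 turned to 0.089 with lens 1R alone for KO animal 1 and to 0.019 with the mean over its probe sets, and ran from -0.36 to 0.22 when animals were left out. Prox1 turned to -0.090 with lens 1L alone for KO animal 1, -0.087 with median centring and -0.028 with array weights, and ran from -0.20 to 0.20 without single animals. Meis1 turned to 0.037 with the mean over its probe sets. Without single animals Maf ran from -0.13 to 0.51, Pitx3 from -0.62 to 0.14 and Six3 from -0.0077 to 0.69, negative in Maf and Six3 without WT animal 2 and positive in Pitx3 without KO animal 7. Over all probe sets 2 or 3 passed in every fit. No paired analysis was possible because KO and WT animals share no replicate numbers. The number of arrays limits the precision, and Foxe3 lies near background.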
